A study of Rattus norvegicus with 4 samples.

Results

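The genes described here encode the proteins that join cells to their neighbours: cadherins and protocadherins, desmosomal proteins, the connexins and pannexins of membrane channels, claudins, and the occludin, junctional adhesion molecule (JAM) and zonula occludens (ZO) proteins of tight junctions. They were matched by gene symbol, under a rule set with earlier results of these data known, and 99 of the 13554 genes in the deposited table matched. Bulk RNA came from Sprague-Dawley rats of 8 to 10 weeks, with 2 libraries of articular cartilage, which covers the bone ends in joints, and 2 of xiphoid cartilage, the lower tip of the sternum. No treatment or genetic change is named for either group, and the labels do not say which joint was used or whether libraries came from separate animals or pools, so p-values measure the spread between these libraries, which may be technical.

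Cadherins are calcium-dependent adhesion proteins that bind cadherins of the next cell and are tied to actin through catenins, whereas desmosomal cadherins are tied to intermediate filaments through plakophilins and desmoplakin. Connexins form gap junctions that let ions and small molecules pass between cells, and pannexins form related channels that mostly open to the outside of the cell. Claudins and occludin seal tight junctions, which are best known from epithelia and endothelia. Mature chondrocytes lie apart in their matrix, while N-cadherin (Cdh2) is known for its part in the condensation of cartilage precursors and pannexin 3 (Panx3) for its expression in hypertrophic chondrocytes and osteoblasts.

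The libraries held between 7351005 and 8434821 counts, so that 1 count corresponded to 0.118 to 0.137 CPM (the count scaled to the size of the library, after TMM). Levels are compared within a gene, since counts are not corrected for transcript length. Listed chondrocyte markers were present in all libraries, with 15 of 16 matched. Their summed level was 135825 and 115350 CPM in articular and 38129 and 35955 CPM in xiphoid libraries. The collagen gene Col2a1 alone gave 103394 and 85673 CPM of the articular sums and 16347 and 14862 CPM of the xiphoid sums. In the test below, 9 of the 15 were called higher in articular and 2 (Cnmd, Comp) in xiphoid cartilage, with 4 not called. Listed markers of other cells also differed between the cartilages. Adipocyte markers, with 8 tested and all 8 higher in xiphoid cartilage, summed to 90.8 and 75.9 CPM in articular and 3026 and 2402 CPM in xiphoid libraries. Osteoclast markers, with 5 tested and all 5 higher in articular cartilage, summed to 1924 and 2012 CPM in articular and 151 and 142 CPM in xiphoid libraries. Those of erythroid cells summed to 6835 and 6845 CPM in the articular against 566 and 616 CPM in the xiphoid libraries, and those of fibroblasts and perichondrium to 1811 and 1865 against 17797 and 16509 CPM, of which Gsn, the actin-severing gelsolin, made up 13879 and 12738 CPM in the xiphoid libraries. In such bulk samples, fewer cells of a type and less RNA per cell cannot be told apart.

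Of the 99 members, 60 passed the filter on low counts and 37 of these differed between the cartilages at an adjusted p under 0.05, with 17 higher in articular and 20 higher in xiphoid cartilage (edgeR quasi-likelihood test, Benjamini-Hochberg over all 11202 genes tested). That was 61.7% of the tested members, beside 49.5% of all tested genes. Higher in articular cartilage were 28.3% of the tested members and 25.0% of all tested genes, and higher in xiphoid cartilage 33.3% and 24.5%. A fitted fold over 2 together with the call was found for 32 members, or 53.3%, beside 29.2% of all genes. The median log2 ratio (the fitted log2 fold change of articular over xiphoid cartilage) was -0.14 for the tested members and -0.02 for all tested genes. A member at low counts could pass the filter through the tissue in which it was high, so these shares describe the tested members and not the families. The change of 58 tested members is given in the plot of log2 fold changes by family.

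**Figure D1:**
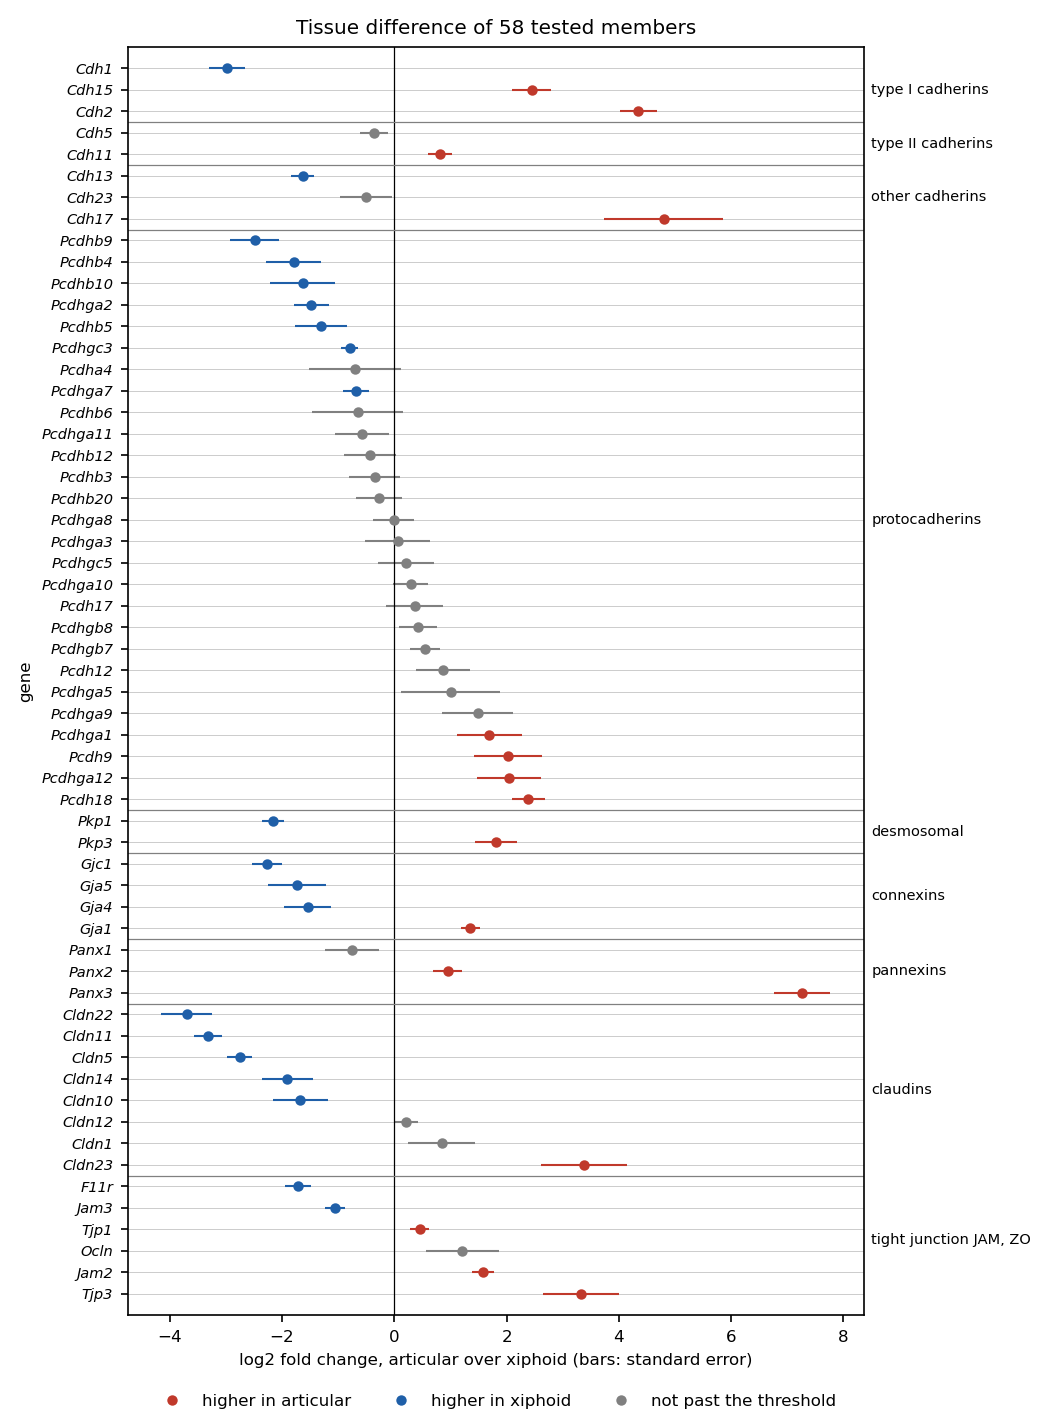
Log2 fold change of articular over xiphoid cartilage (x axis) for 58 of the 60 tested members (y axis), grouped by family, with bars of 1 standard error, 2 libraries per tissue. Red points were higher in articular cartilage (16), blue points higher in xiphoid cartilage (20) and grey points did not pass the threshold (22), and Panx3 lies farthest to the right at 7.26.

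The type I cadherins parted, with N-cadherin higher in articular and E-cadherin higher in xiphoid cartilage. Cdh2 (Entrez gene 83501) was at 20.6 and 28.9 CPM in the articular libraries and at 1.41 and 0.959 CPM in the xiphoid libraries. The fitted difference was 20.4-fold toward articular cartilage (24.7 ± 5.89 against 1.19 ± 0.320 CPM, SD, n = 2, log2 ratio 4.35, SE 0.34, adjusted p = 6.1e-07). Both articular libraries lay far above both xiphoid libraries. Cdh1 (Entrez gene 83502), the adhesion protein of epithelia, was at 1.67 and 3.08 CPM in articular and 17.1 and 20.4 CPM in xiphoid libraries, 7.87-fold higher in xiphoid cartilage (log2 ratio -2.98, SE 0.32, adjusted p = 1.05e-05). Cdh15, the M-cadherin of muscle precursor cells, was at 11.7 and 8.99 CPM in articular and 2.12 and 1.64 CPM in xiphoid libraries, 5.44-fold more in articular cartilage (adjusted p = 1.02e-04). Its direction was opposite to that of the skeletal muscle markers, of which 13 of 16 were matched, 11 tested and 10 higher in xiphoid cartilage. These summed to 303 and 235 CPM in articular and 8749 and 8828 CPM in xiphoid libraries, and Myh2, Myh7, Myod1 and Myog were at 0 in both articular libraries. Without Tnni2, a troponin subunit and the 1 tested marker that did not pass, the articular sums were 34.5 and 24.8 CPM, mostly from Tnnt3 (30.7 and 21.3 CPM), and the xiphoid sums 8496 and 8595 CPM. Cdh3, the P-cadherin of basal epithelia, had at most 4 counts in a library and was not tested.

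Markers of epithelium were read beside Cdh1. Of 15 listed, 13 were matched and 6 tested, with 4 higher in articular cartilage, and the sum was 119 and 103 CPM in articular and 138 and 131 CPM in xiphoid libraries. Krt8, a keratin of simple epithelia, was the 1 tested marker higher in xiphoid cartilage (105.9 and 97.4 CPM there, 37.6 and 32.9 CPM in articular libraries), while Epcam, an epithelial adhesion protein, was higher in articular cartilage (log2 ratio 1.53, adjusted p = 0.0022). Krt18, another keratin, went opposite to Krt8, at 19.0 and 15.8 CPM in articular and 0.235 and 0.411 CPM in xiphoid libraries (adjusted p = 3.87e-07). Krt5 and Tp63, which define basal epithelia, were at 0 in both articular libraries and at 1 to 9 counts in the xiphoid libraries. Grhl2 had 3 and 0 counts in articular libraries and was at 0 in both xiphoid libraries. Mesothelial markers, 4 of 8 matched, were at 0 in the articular libraries and summed to 4.82 and 4.11 CPM in the xiphoid libraries. The part of such cells in the Cdh1 difference was not tested.

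Among type II and other cadherins the differences were smaller in the well-expressed genes. Cdh11, known from osteoblasts and other mesenchymal cells, was at 24.3 and 33.0 CPM in articular and 15.5 and 17.0 CPM in xiphoid libraries, 1.76-fold higher in articular cartilage (log2 ratio 0.82, SE 0.21, adjusted p = 0.00696). Cdh13, a cadherin held by a lipid anchor without a cytoplasmic tail, was at 9.33 and 9.12 CPM in articular and 29.0 and 28.1 CPM in xiphoid libraries, 3.09-fold more in xiphoid cartilage (adjusted p = 3.9e-05). The VE-cadherin gene Cdh5, which marks endothelium, was at 18.8 and 11.2 CPM in articular and 19.5 and 19.2 CPM in xiphoid libraries and did not pass (log2 ratio -0.37, SE 0.25, adjusted p = 0.248). Articular replicate 2 was the lowest of the 4 libraries, and without articular replicate 1 the log2 fold change was -0.79 with an adjusted p of 0.00851, whereas without articular replicate 2 it was -0.042 (0.902). Cdh23, a tip-link protein of hair cells, overlapped between the tissues and did not pass (adjusted p = 0.401).

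Cdh17, a cadherin of intestinal epithelium that is also known from the B lymphocyte lineage, had 11 and 24 articular counts beside 0 and 1 xiphoid counts. Scaled counts stood at a ratio of 34.3, with exact 95% limits of 5.76 and 1391 (adjusted p = 0.00262). The fitted log2 fold change of 4.80 moved to 5.29 (articular replicate 1 left out), 3.85 (xiphoid replicate 1) and 7.18 (xiphoid replicate 2), and without articular replicate 2 the gene no longer passed the filter. Lymphocyte markers, 9 of 10 matched and 5 tested, were higher in articular cartilage in 4 cases, at a sum of 43.8 and 43.5 CPM against 12.6 and 14.5 CPM, and Cd79b, Igll1, Vpreb1, Pax5 and Cd3e were at 0 in both xiphoid libraries. Without Ebf1, the 1 tested marker that did not pass, the sums were 37.8 and 31.5 CPM against 0.353 and 0.137 CPM. Their part in the Cdh17 difference was not tested. Cdh8, a cadherin of the nervous system, was untested with 13 and 5 counts in articular and none in xiphoid libraries. Allowing 3 counts over both xiphoid libraries, its scaled articular counts were 5.87-fold higher, a value that leaves out their own counting error. Cdh6, Cdh10, Cdh16, Cdh20, Cdh22 and Cdh26 had at most 6 counts in any library.

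**Figure D2:**
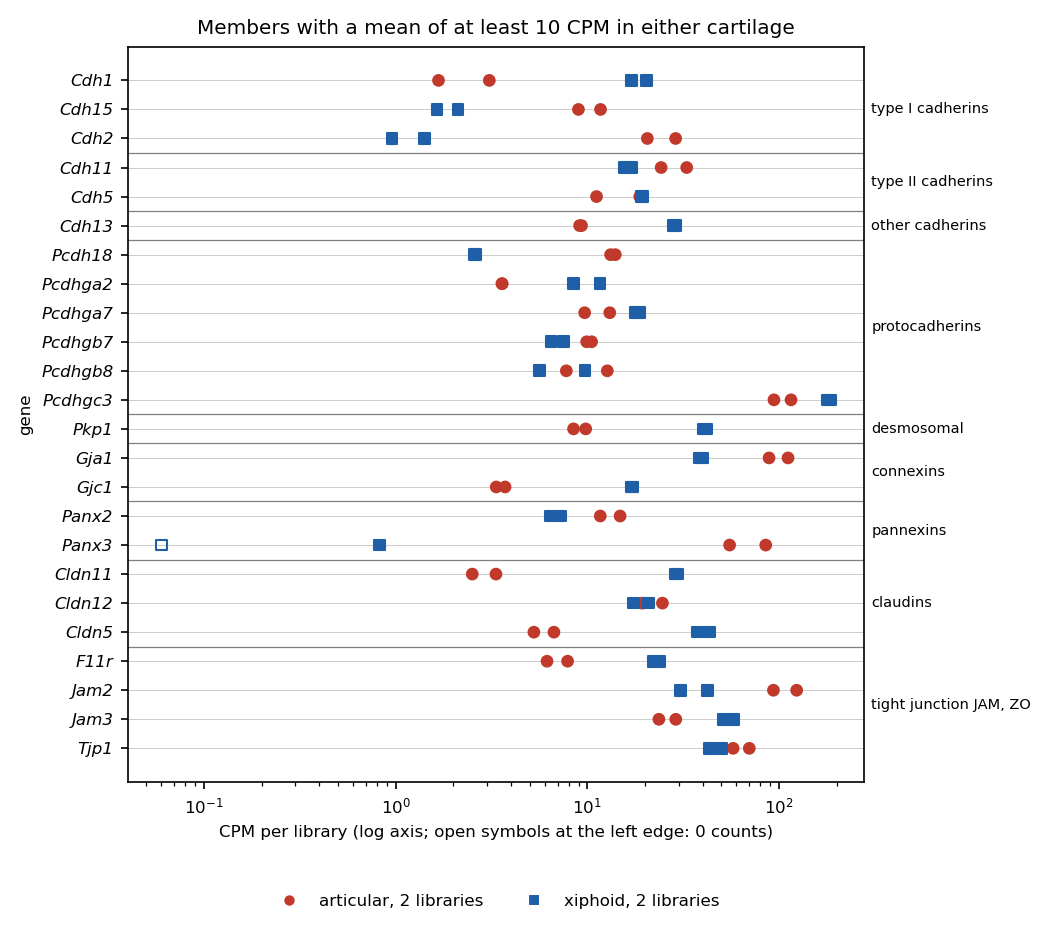
CPM per library on a log axis (x) for 24 of the 25 members with a mean of at least 10 CPM in either cartilage (y), with 2 articular libraries as red circles and 2 xiphoid libraries as blue squares, and an open square for 0 counts. Cdh2 and Panx3 have their red circles well to the right, Cdh1, Cldn11, Cldn5 and Pkp1 their blue squares, and Cldn12 and Pcdhgb8 have both symbols mixed.

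Connexins and pannexins carried the largest difference among the members. Panx3 (Entrez gene 315567) was at 55.3 and 85.3 CPM in the articular libraries, or 462 and 664 counts, and at 7 and 0 counts in the xiphoid libraries. The fitted difference was 154-fold toward articular cartilage (70.3 ± 21.2 against 0.412 ± 0.582 CPM, SD, n = 2, log2 ratio 7.26, SE 0.50, adjusted p = 2.19e-06). Without xiphoid replicate 2 the log2 fold change was 6.40, and without xiphoid replicate 1 no xiphoid count remained, so that the fitted value of 12.10 is no measure of size. Panx2, first described in brain, was at 14.8 and 11.7 CPM in articular and 7.29 and 6.44 CPM in xiphoid libraries, 1.93-fold more in articular cartilage (adjusted p = 0.00975). Panx1, the widely expressed pannexin, was at 2.63 and 1.93 CPM in articular and 2.35 and 5.48 CPM in xiphoid libraries and did not pass (log2 ratio -0.75, SE 0.49, adjusted p = 0.22). Xiphoid replicate 2 stood highest for Panx1, and the other 3 libraries lay close together. Osteoblast markers, 9 of 10 matched and all 9 tested, were higher in articular cartilage in 8 cases and summed to 9761 and 8995 CPM in articular and 5986 and 6518 CPM in xiphoid libraries, with Phex and Sost at 0 in both xiphoid libraries. Most of these sums came from Col1a1, a collagen chain that fibroblasts also make and the 1 marker that did not pass. The other 8 summed to 4244 and 3015 CPM in articular and 24.3 and 23.4 CPM in xiphoid libraries. Their part in the difference of Panx3, Cdh2, Cdh11 and the connexin gene Gja1, given below, was not tested.

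Gja1, which encodes connexin 43, the main gap junction protein of chondrocytes and bone cells, was higher in articular cartilage, while the connexins of vessels were higher in xiphoid cartilage. Gja1 (Entrez gene 24392) was at 88.8 and 111 CPM in articular and 39.9 and 38.4 CPM in xiphoid libraries. The difference was 2.56-fold (100.1 ± 16.1 against 39.1 ± 1.06 CPM, SD, n = 2, log2 ratio 1.36, SE 0.17, adjusted p = 3.35e-05), and the 2 groups did not overlap. Gjc1, a connexin of vascular smooth muscle and the cardiac conduction system, was at 3.35 and 3.72 CPM in articular and 17.1 and 17.3 CPM in xiphoid libraries, 4.84-fold higher in xiphoid cartilage (log2 ratio -2.27, SE 0.27, adjusted p = 2.2e-05). Gja4, a connexin of endothelium, was at 3.59 and 1.54 CPM in articular and 9.17 and 5.89 CPM in xiphoid libraries, 2.92-fold more in xiphoid cartilage (adjusted p = 0.00903). The log2 fold change of Gja4 was -1.54 and moved to -2.28 without articular replicate 1, and without xiphoid replicate 1 it was -1.17 with an adjusted p of 0.058. Gja5, also endothelial, was at 0.957 and 0.899 CPM in articular and 2.59 and 3.70 CPM in xiphoid libraries (log2 ratio -1.73, adjusted p = 0.0147), a call lost without articular replicate 2 (adjusted p = 0.051), without xiphoid replicate 2 (0.17) and in DESeq2 (0.0586).

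The remaining connexins were sparse. Gjb2, a connexin of the cochlea and of epithelia, had 8 and 25 counts in articular and 3 and 5 counts in xiphoid libraries and was not tested. Gjb6, its partner in the cochlea, had 5 and 10 against 0 and 2 counts, a count ratio of 7.34 (exact 95% limits 1.71 and 66.2.) Gja3, a lens connexin, had 1 and 0 against 5 and 7 counts, 12.3 times more in xiphoid libraries by scaled counts (1.81 to 524). Gjb5 had 3 counts in all. Such intervals cover counting error only.

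Of the 18 claudins in the table, 8 were tested, of which 5 were higher in xiphoid and 1 in articular cartilage. Of all tested genes, 24.5% were higher in xiphoid and 25.0% in articular cartilage. Cldn11 (Entrez gene 84588), the claudin of central myelin and Sertoli cells, was at 2.51 and 3.34 CPM in articular and 29.5 and 28.9 CPM in xiphoid libraries. The fitted difference was 9.97-fold toward xiphoid cartilage (2.93 ± 0.585 against 29.2 ± 0.431 CPM, SD, n = 2, log2 ratio -3.32, SE 0.25, adjusted p = 5.38e-07). Cldn5 (Entrez gene 65131), the claudin of endothelium, was at 6.70 and 5.27 CPM in articular and 43.3 and 37.7 CPM in xiphoid libraries, 6.74-fold higher in xiphoid cartilage (log2 ratio -2.75, SE 0.22, adjusted p = 8.6e-07). For both genes the 2 libraries of each tissue lay close together and the tissues far apart. Cldn22 was at 0.359 and 1.03 CPM in articular and 9.17 and 8.90 CPM in xiphoid libraries (log2 ratio -3.70, adjusted p = 3.41e-05), which ranged from -3.12 without articular replicate 1 to -4.60 without articular replicate 2. Cldn14, known from the cochlea, was at 1.91 and 0.899 CPM in articular and 5.88 and 4.79 CPM in xiphoid libraries (log2 ratio -1.90, adjusted p = 0.00424, -2.55 without articular replicate 1). Cldn10, a pore-forming claudin of the kidney, was at 4.19 and 1.03 CPM in articular and 6.82 and 10.1 CPM in xiphoid libraries. Articular replicate 1 of Cldn10 came close to the xiphoid libraries, and the log2 fold change of -1.67 (adjusted p = 0.0138) was -3.02 without articular replicate 1 and -1.01 without articular replicate 2.

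Cldn23 was the claudin higher in articular cartilage, with 16 and 18 counts against 2 and 1, a count ratio of 11.1 (exact 95% limits 3.49 and 56.5, adjusted p = 0.00306). Cldn12, a widely expressed claudin, was at 19.4 and 24.7 CPM in articular and 17.4 and 20.8 CPM in xiphoid libraries, and the groups overlapped (log2 ratio 0.21, SE 0.21, adjusted p = 0.447). Cldn1, the barrier claudin of skin, had 6 to 17 counts per library and did not pass (log2 ratio 0.85, SE 0.60, adjusted p = 0.262). The 10 untested claudins, Cldn2, Cldn3, Cldn4, Cldn6, Cldn7, Cldn9, Cldn15, Cldn19, Cldn20 and Cldn24, had at most 7 counts in any library. Cldn19, which Schwann cells use at their myelin, had 2 and 1 counts in articular and 5 and 6 in xiphoid libraries, and Cldn7 had 7 counts in each articular and 2 in each xiphoid library.

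Endothelial markers were read beside Cdh5, Cldn5, Gja4 and Gja5. Of 14 listed, 13 were matched and 12 tested, with 6 higher in xiphoid cartilage, Kdr higher in articular cartilage and 5 not past the threshold, and 0 markers were at 0 in all libraries of a tissue. Their sum was 237 and 239 CPM in articular and 310 and 322 CPM in xiphoid libraries, and their median log2 fold change was -0.40. Pecam1, an endothelial adhesion protein, had a log2 fold change of -0.79 (adjusted p = 0.00155). Schwann cell and nerve markers, 13 of 13 matched and 10 tested, were higher in xiphoid cartilage in 6 cases, at a sum of 651 and 702 CPM against 2982 and 3059 CPM, with Sox10 at 0 in both xiphoid libraries. Smooth muscle and pericyte markers, 11 of 11 matched and tested, were higher in xiphoid cartilage in 6 cases and in articular in 2. They summed to 161 and 151 CPM in articular and 448 and 454 CPM in xiphoid libraries. The part of these cells in the claudin and connexin differences, that of Gjc1 among them, was not tested. The plot of members beside marker lists sets these values side by side, except those of smooth muscle and pericytes.

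**Figure D3:**
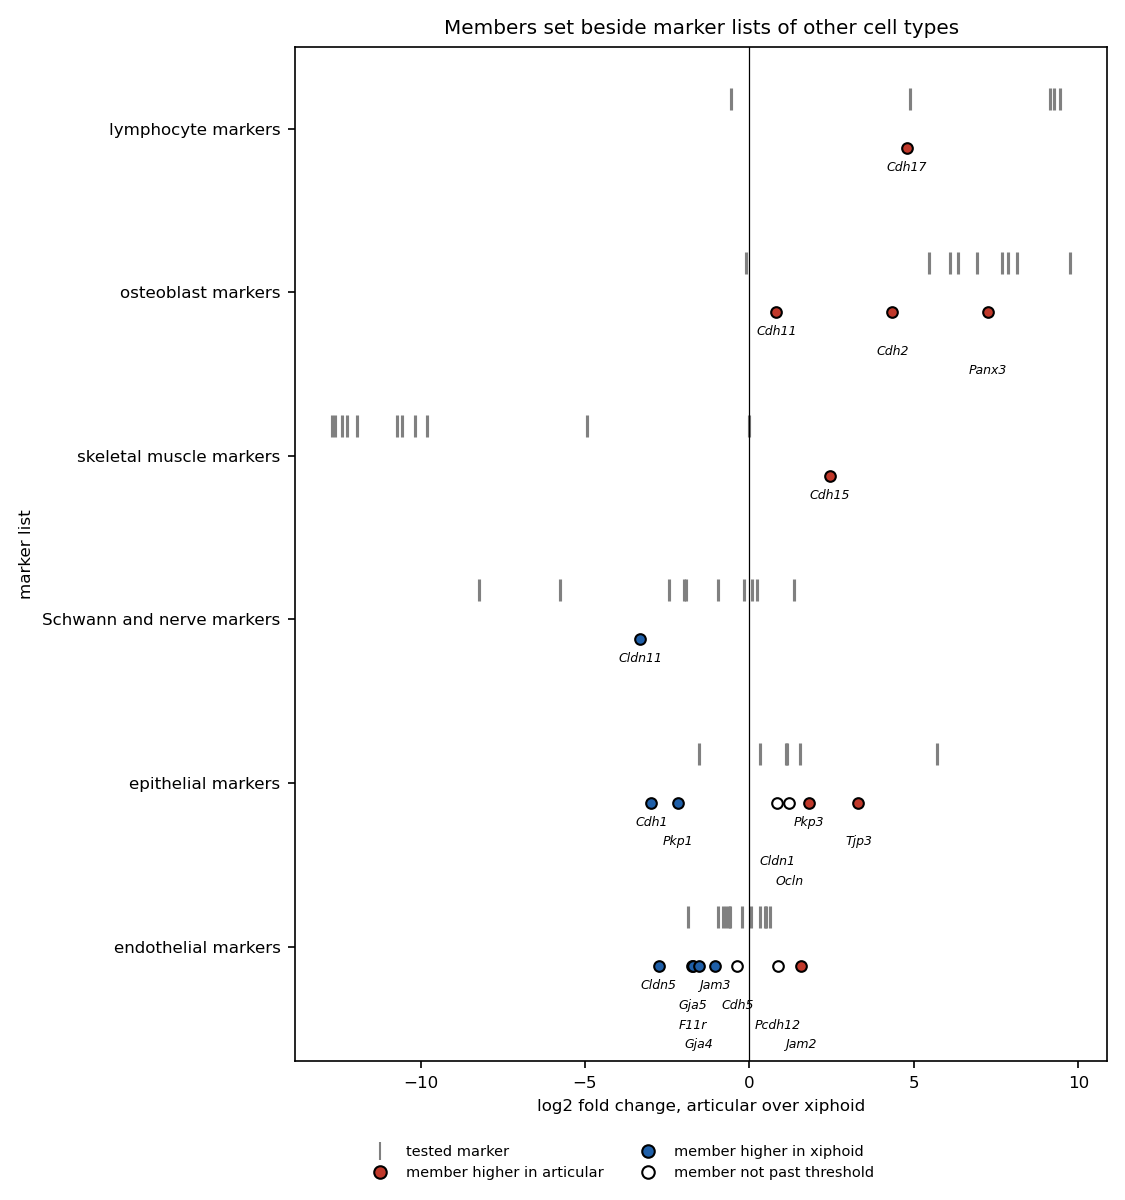
Log2 fold change of articular over xiphoid cartilage (x axis) of tested markers of 6 cell types (grey ticks, 1 list per row on the y axis) and of members set beside them (circles, red higher in articular, blue higher in xiphoid, white not past the threshold). Cldn5 lies at -2.75, below the lowest of the 12 endothelial markers, and Cdh15 lies right of the skeletal muscle markers, which reach far to the left.

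The scaffold and adhesion proteins of tight junctions went both ways. Tjp3, the ZO-3 scaffold, had 22 and 21 against 2 and 2 counts (log2 ratio 3.32, SE 0.68, adjusted p = 0.00151). Tjp3 shares genomic sequence with Apba3 in the RefSeq annotation of GRCr8, and Apba3 did not differ between the tissues beyond its error (log2 ratio -0.01, SE 0.17, adjusted p = 0.962). Tjp1, the ZO-1 scaffold, was at 57.7 and 70.0 CPM in articular and 43.4 and 50.0 CPM in xiphoid libraries, a difference of 1.37-fold at an adjusted p of 0.0416. That call was lost without articular replicate 2 (adjusted p = 0.164), xiphoid replicate 1 (0.29) or xiphoid replicate 2 (0.0757) and in DESeq2 (0.0887).

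The 3 junctional adhesion molecules, immunoglobulin-type proteins that also bind leukocytes, differed in direction. Jam2 (Entrez gene 619374) was at 93.5 and 124 CPM in articular and 30.7 and 42.3 CPM in xiphoid libraries, 2.98-fold higher in articular cartilage (108.6 ± 21.3 against 36.5 ± 8.23 CPM, SD, n = 2, log2 ratio 1.58, SE 0.20, adjusted p = 3.93e-05). Jam3 was at 28.9 and 23.6 CPM in articular and 58.1 and 51.5 CPM in xiphoid libraries, 2.08-fold more in xiphoid cartilage (adjusted p = 3.45e-04). F11r, which encodes JAM-A, was at 7.90 and 6.17 CPM in articular and 22.2 and 24.0 CPM in xiphoid libraries, 3.27-fold more in xiphoid cartilage (adjusted p = 7.16e-05). In each of these genes the groups lay apart. Ocln, which encodes occludin, had 5 to 13 counts per library and did not pass (log2 ratio 1.21, SE 0.64, adjusted p = 0.139).

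Of the 5 desmosomal members, the plakophilins Pkp1 and Pkp3 were tested. Pkp1 (Entrez gene 304822), the plakophilin of stratified epithelia, was at 9.81 and 8.48 CPM in articular and 40.2 and 41.9 CPM in xiphoid libraries, 4.48-fold higher in xiphoid cartilage (log2 ratio -2.16, SE 0.20, adjusted p = 2.75e-06). Pkp3, another plakophilin of epithelia, was at 5.98 and 6.55 CPM in articular and 1.76 and 1.78 CPM in xiphoid libraries, 3.51-fold more in articular cartilage (adjusted p = 0.00182). The replicates of both plakophilins lay close together and the groups did not overlap. Pkp3 shares sequence with Sigirr in GRCr8, which was at 12 to 21 counts per library and did not pass (adjusted p = 0.818). The desmosomal cadherins Dsc2 and Dsg3 had articular counts of 10 and 18 and of 6 and 3 and no xiphoid count. Allowing 3 counts over both xiphoid libraries, Dsc2 was 9.14-fold and Dsg3 2.94-fold higher by scaled counts. These values leave out the error of the articular counts. Pkp2 had 2 and 0 counts in articular and 8 and 4 in xiphoid libraries.

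Protocadherins form the largest family here, with 41 members and 27 tested, of which 4 were higher in articular cartilage and 7 in xiphoid. The counts of calls in this family and its clusters stand beside 25.0% of all tested genes higher in articular and 24.5% higher in xiphoid cartilage. Most lie in clusters, where each alpha or gamma gene joins its own variable exon to constant exons shared by the cluster, so that reads of the constant exons cannot be assigned to 1 gene and the split between members is uncertain. Beta genes are close copies of each other. Outside the clusters, Pcdh18 (Entrez gene 295027) was at 14.0 and 13.2 CPM in articular and 2.59 and 2.60 CPM in xiphoid libraries, 5.22-fold higher in articular cartilage (log2 ratio 2.38, SE 0.29, adjusted p = 3.29e-05). Pcdh9 was at 1.91 and 4.37 against 0.941 and 0.548 CPM (log2 ratio 2.02, adjusted p = 0.0157), a call lost without articular replicate 2 (1.33, adjusted p = 0.207) and without xiphoid replicate 2 (1.72, 0.0632). Pcdh12, a protocadherin of endothelium, had 10 to 27 counts per library and did not pass (log2 ratio 0.87, SE 0.48, adjusted p = 0.154). Pcdh17 did not pass either (adjusted p = 0.58).

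In the gamma cluster all 14 members were tested, with 3 higher in xiphoid and 2 in articular cartilage. Pcdhgc3 (Entrez gene 116782) was at 116 and 94.1 CPM in articular and 178 and 186 CPM in xiphoid libraries, 1.73-fold higher in xiphoid cartilage (log2 ratio -0.79, SE 0.15, adjusted p = 0.00109). Pcdhga2 was at 3.59 and 3.60 against 8.47 and 11.6 CPM (log2 ratio -1.48, adjusted p = 0.00192). Pcdhga7 was at 9.69 and 13.1 against 18.7 and 17.8 CPM (log2 ratio -0.68, adjusted p = 0.0267), and the call did not hold without articular replicate 1 (adjusted p = 0.119), xiphoid replicate 1 (0.115) or xiphoid replicate 2 (0.0693) or in DESeq2 (0.0799). On the articular side, Pcdhga12 was at 2.15 and 4.24 against 0.706 and 0.822 CPM (log2 ratio 2.04, adjusted p = 0.0109) and lost its call without articular replicate 2 (1.48, adjusted p = 0.141). Pcdhga1 was at 4.79 and 3.60 against 0.47 and 2.19 CPM, and its log2 fold change of 1.69 (adjusted p = 0.0269) was 0.94 (adjusted p = 0.199) without xiphoid replicate 1, 3.13 without xiphoid replicate 2 and 1.47 (0.0591) without articular replicate 1. The other 9 gamma members did not pass, with log2 ratios from -0.58 for Pcdhga11 to 1.49 for Pcdhga9. Among them, Pcdhgb7 was at 9.93 and 10.5 against 6.47 and 7.53 CPM (adjusted p = 0.105), Pcdhgb8 at 7.78 and 12.7 against 5.64 and 9.73 CPM, and Pcdhga5 had 18 and 26 against 22 and 0 counts. Pcdhga9 (adjusted p = 0.0695) and Pcdhgb8 (0.319) did not pass with all libraries and passed without articular replicate 1 (0.00448 and 0.047), as Pcdhga9 did without xiphoid replicate 2 (0.0319). Without articular replicate 2 their log2 ratios were 0.51 for Pcdhga9 (adjusted p = 0.654) and 0.03 for Pcdhgb8 (0.954). Pcdhga5 passed without xiphoid replicate 1 (adjusted p = 5.43e-04), a fit against 0 xiphoid counts.

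Since these members share exons, their counts were also added up. The 14 gamma genes together were at 174 and 166 CPM in articular and 238 and 253 CPM in xiphoid libraries. The log2 fold change of this sum was -0.53 (SE 0.14, adjusted p = 0.00798). Pcdhgc3 alone made up 116 and 94.1 CPM of the articular and 178 and 186 CPM of the xiphoid sums. The sum thus mostly follows Pcdhgc3, and the median log2 fold change of the 14 genes was 0.25. With the 14 gamma and 7 alpha rows each counted as 1, 15 members passed toward articular and 18 toward xiphoid cartilage. The alpha rows together had 8 and 29 counts in articular and 36 and 28 in xiphoid libraries and did not pass (adjusted p = 0.231).

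Of the 11 beta genes, 8 were tested and 4 were higher in xiphoid cartilage. Pcdhb9 was at 1.67 and 0.771 CPM in articular and 6.47 and 7.53 CPM in xiphoid libraries (log2 ratio -2.49, SE 0.44, adjusted p = 5.14e-04), and at -3.15 without articular replicate 1. Pcdhb4 was at 1.32 and 0.899 against 4.59 and 3.15 CPM (log2 ratio -1.79, adjusted p = 0.009) and did not pass without xiphoid replicate 1 (adjusted p = 0.123). Pcdhb5 (adjusted p = 0.0333) and Pcdhb10 (0.0336) were called with all 4 libraries, but Pcdhb5 stayed called only without articular replicate 1 (0.0293) and Pcdhb10 likewise (0.0452) among the 4 fits that left out a library. The 4 tested beta genes that did not pass, Pcdhb3, Pcdhb6, Pcdhb12 and Pcdhb20, had log2 ratios from -0.65 to -0.27. The 4 called beta genes were at 4 to 55 counts per library, and the plot of protocadherins shows how near they lie to the level of single counts.

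**Figure D4:**
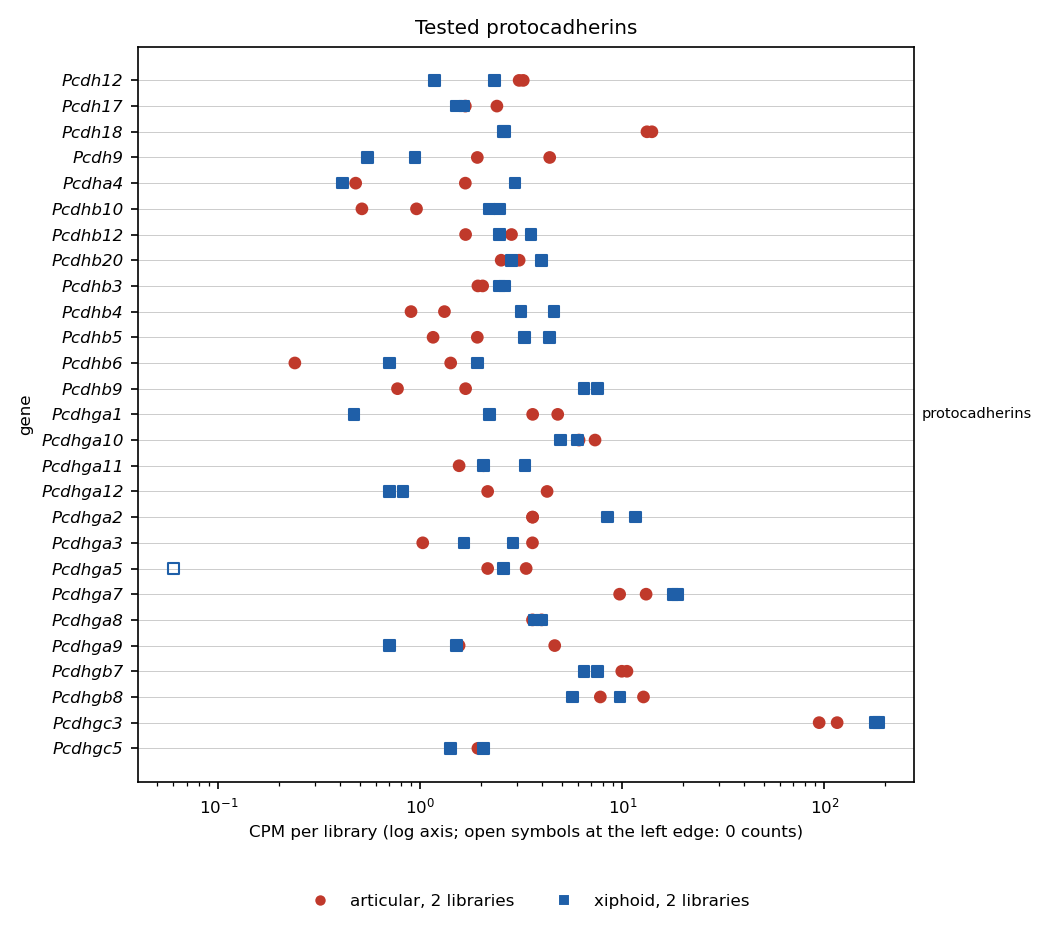
CPM per library on a log axis (x) for the 27 tested protocadherins (y), with articular libraries as red circles and xiphoid libraries as blue squares (2 each), and an open square for 0 counts. Pcdhgc3 lies between 94.1 and 186 CPM, Pcdh18 is the clearest with articular libraries to the right, and the tissues overlap in 10 of the 27 genes.

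The 39 untested members had at most 25 counts in any library, and 20 of them had fewer than 10 counts over all 4 libraries. Of these 39, 9 were at 0 in both xiphoid and 8 in both articular libraries, where a count of 0 over both libraries allows up to 0.19 and 0.186 CPM. The 14 untested protocadherins (Pcdh7, Pcdh8, Pcdh11x, Pcdh19 and Pcdh20, 6 alpha and 3 beta genes) had at most 13 counts in a library. Pcdha3 had 2 and 13 counts in xiphoid and none in articular libraries. Allowing 3 counts over both articular libraries, its scaled xiphoid counts were 5.11-fold higher. That value comes mostly from xiphoid replicate 2 and leaves out the error of the xiphoid counts. Among the 60 tested members, the libraries of the tissues did not overlap for 47, and for 74.9% of all tested genes. Of those 47, 10 did not pass the test.

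The effect of single libraries on the called members is shown in the plot of values with each library left out. In these fits, which leave 1 tissue with a single library assumed to vary like the others, leaving out articular replicate 1 or 2 left 35 and 30 calls, leaving out xiphoid replicate 1 or 2 left 30 and 31, and in 0 cases did the sign turn. The members that lost a call were Tjp1, Gja4, Gja5 and the protocadherins Pcdh9, Pcdhb4, Pcdhb5, Pcdhb10, Pcdhga1, Pcdhga7 and Pcdhga12, beside Cdh17, which was untested in 1 of the fits.

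**Figure D5:**
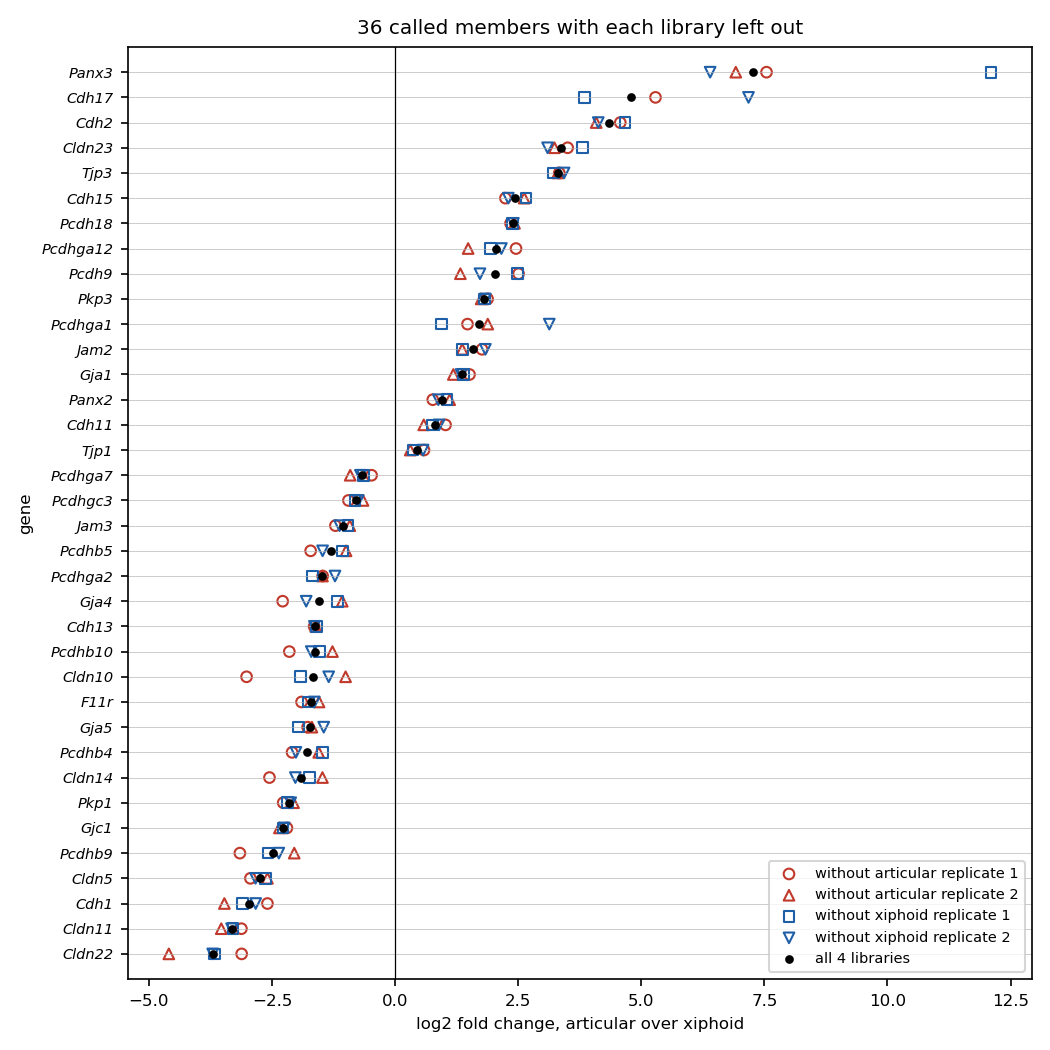
Log2 fold change of articular over xiphoid cartilage (x axis) of 36 of the 37 called members (y axis) with all 4 libraries (black) and with each library left out (open symbols, red for articular and blue for xiphoid). Values keep their side of 0, and Panx3 at 12.10 is a fit against 0 xiphoid counts and no measure of size.

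Promoter sequences were matched for 71 of the 99 members, from RefSeq on build GRCr8, which is not the build of the counts. The 250 bases before the annotated start are shown for the 3 members in each direction with the lowest adjusted p among those of at least 10 CPM with an entry, to set genes that moved in opposite directions side by side. Panx3, Cdh1 and Cdh2 had no entry. The windows lie upstream of Pcdh18 (chr2:135996827-135997076, minus strand), Gja1 (chr20:36302314-36302563, plus strand) and Jam2 (chr11:37317310-37317559, plus strand), all higher in articular cartilage, and of Cldn11 (chr2:114149540-114149789, minus strand), Cldn5 (chr11:95718599-95718848, minus strand) and Pkp1 (chr13:49909163-49909412, minus strand), all higher in xiphoid cartilage. They read 5′ to 3′ on the gene's strand, and capitals mark matches on either strand to short motifs. These were TGANTCA for AP-1, TGTGGT for RUNX factors, CAGGTG for the E-box that SNAIL and ZEB factors bind, AACAAT for SOX factors, CCAAT for the box of that name, GGGCGG for the GC box and TATAAA for the TATA box.
Pcdh18: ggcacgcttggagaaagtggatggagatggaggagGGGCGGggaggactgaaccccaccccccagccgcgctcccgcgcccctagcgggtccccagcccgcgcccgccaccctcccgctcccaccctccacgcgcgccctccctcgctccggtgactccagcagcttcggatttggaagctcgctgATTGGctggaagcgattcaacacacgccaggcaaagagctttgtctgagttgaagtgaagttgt
Gja1: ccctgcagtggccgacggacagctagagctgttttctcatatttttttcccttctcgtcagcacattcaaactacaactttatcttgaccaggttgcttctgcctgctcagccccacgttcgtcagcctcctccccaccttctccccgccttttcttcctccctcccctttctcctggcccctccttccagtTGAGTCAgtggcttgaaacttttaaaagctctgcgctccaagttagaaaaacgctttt
Jam2: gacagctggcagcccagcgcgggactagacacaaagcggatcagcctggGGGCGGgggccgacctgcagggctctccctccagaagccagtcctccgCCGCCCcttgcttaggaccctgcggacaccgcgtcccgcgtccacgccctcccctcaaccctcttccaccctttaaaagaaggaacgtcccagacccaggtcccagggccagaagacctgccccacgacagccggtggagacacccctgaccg
Cldn11: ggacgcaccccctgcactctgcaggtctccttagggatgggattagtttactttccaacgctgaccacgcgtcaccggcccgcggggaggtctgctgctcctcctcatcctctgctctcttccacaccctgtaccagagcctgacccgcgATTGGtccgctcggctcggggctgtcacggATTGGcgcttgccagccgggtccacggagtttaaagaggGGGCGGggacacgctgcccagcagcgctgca
Cldn5: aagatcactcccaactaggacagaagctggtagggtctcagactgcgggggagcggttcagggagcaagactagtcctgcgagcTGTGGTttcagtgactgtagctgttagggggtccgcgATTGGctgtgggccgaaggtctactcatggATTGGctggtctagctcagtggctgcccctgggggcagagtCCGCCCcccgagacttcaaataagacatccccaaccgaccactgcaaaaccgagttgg
Pkp1: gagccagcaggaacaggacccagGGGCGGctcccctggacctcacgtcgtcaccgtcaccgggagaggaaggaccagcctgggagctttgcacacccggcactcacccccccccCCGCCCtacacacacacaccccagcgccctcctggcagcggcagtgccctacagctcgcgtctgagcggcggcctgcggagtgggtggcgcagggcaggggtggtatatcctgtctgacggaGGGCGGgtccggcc

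The Gja1 window held 1 match, to the AP-1 letters, 58 bases before the start, and 6.34% of the 33469 promoter windows of the same length hold those letters. Cldn11 and Cldn5 each held 2 CCAAT matches, at 100 and 70 bases and at 129 and 99 bases before the start, and 34.0% of all windows hold at least 1. A GC box was matched in all windows shown but that of Gja1, and in 30.5% of all windows. Cldn5 also held the RUNX letters, which 14.5% of all windows hold. No window shown held the E-box letters (15.9% of all windows), the SOX letters (10.3%) or the TATA letters (12.9%). Matches in these windows did not share bases, and a match is a string of letters and no evidence of binding.

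Partners of the junction proteins were described from fixed lists. Their counts of calls stand beside 25.0% of all tested genes higher in articular and 24.5% higher in xiphoid cartilage. Of the catenins and adherens plaque genes, 16 of 17 matched were tested, with 3 higher in articular and 5 in xiphoid cartilage and a median log2 fold change of 0.06. Ctnnb1, the beta-catenin that binds the cadherin tail, was at 298 and 321 CPM in articular and 434 and 423 CPM in xiphoid libraries, 1.38-fold more in xiphoid cartilage (adjusted p = 0.0156), a call lost without either xiphoid library (adjusted p = 0.15 without replicate 1 and 0.122 without replicate 2). Ctnna1, the alpha-catenin that links to actin (log2 ratio 0.29, SE 0.15, adjusted p = 0.129), and Jup, the plakoglobin of desmosomes (0.45, SE 0.18, adjusted p = 0.0538), did not pass with all libraries and passed in some other fits. Both passed without articular replicate 1 (adjusted p = 0.0334 and 0.028), and Jup also with upper-quartile factors (0.0369), with no filter (0.0486) and at a mean CPM of at least 5 (0.0478). Ctnnd1, the p120-catenin that holds cadherins at the membrane, was at 122 and 120.5 CPM in articular and 112 and 129 CPM in xiphoid libraries (log2 ratio 0.01, SE 0.15, adjusted p = 0.969). Afdn, which links nectins to actin, was at 39.1 and 39.2 against 24.1 and 23.4 CPM (adjusted p = 0.00429), and Nectin1 was 2.85-fold more in articular cartilage (adjusted p = 0.00791). Limd1, a LIM domain protein, was 1.63-fold more in xiphoid cartilage (adjusted p = 0.00358, 0.0536 without xiphoid replicate 1).

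Among the transcription factors known to repress cadherin genes, 3 of 6 tested passed toward articular and 0 toward xiphoid cartilage. Of all tested genes, 49.5% passed in either direction, 25.0% toward articular and 24.5% toward xiphoid cartilage. Zeb2 was at 22.8 and 25.6 CPM in articular and 9.05 and 10.1 CPM in xiphoid libraries, 2.52-fold more in articular cartilage (adjusted p = 2.65e-04). Zeb1 was at 42.7 and 57.2 against 27.8 and 31.5 CPM (adjusted p = 0.00544) and Snai1 at 118.5 and 132 against 62.7 and 86.7 CPM (adjusted p = 0.00398, 0.089 without xiphoid replicate 1). Snai2 and Twist1 did not pass (adjusted p = 0.555 and 0.636). Twist2 did not pass with all libraries (log2 ratio -1.98, SE 0.78, adjusted p = 0.0535) and passed without articular replicate 2 (-3.50, adjusted p = 0.0281) and in limma-voom (-2.16, 0.0349). The same libraries had the lower Cdh1 and the higher Cdh2 levels given above, and a link between them was not tested.

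Of the other tight junction proteins, 20 of 25 matched were tested, with 7 higher in articular and 3 in xiphoid cartilage and a median log2 fold change of 0.32. Lsr, a protein of junctions where 3 epithelial cells meet, was at 17.9 and 20.3 CPM in articular and 1.53 and 2.47 CPM in xiphoid libraries, 9.62-fold higher in articular cartilage (log2 ratio 3.27, SE 0.31, adjusted p = 3.58e-06). Sympk, symplekin, which also acts in RNA processing, was 1.98-fold more in articular cartilage (adjusted p = 2.49e-04). On the xiphoid side, Cgnl1, a cingulin-like plaque protein, was at 19.7 and 19.0 against 49.5 and 48.6 CPM (adjusted p = 4.6e-05), and Marveld1 was at 261 and 277 against 493 and 611 CPM (adjusted p = 1.64e-04).

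Of the large and atypical cadherins, 1 of 8 tested was higher in articular and 2 in xiphoid cartilage. Clstn2, a calsyntenin known from synapses, was at 6.10 and 4.50 CPM in the articular libraries and had no count in the xiphoid libraries (adjusted p = 4.35e-05). Clstn1 was at 108 and 82.7 against 195 and 143 CPM (adjusted p = 0.003, 0.0537 without xiphoid replicate 1), and Fjx1, a kinase-like modifier of large cadherins, was 3.05-fold more in xiphoid cartilage (adjusted p = 0.00129). Dchs1, a large cadherin, was at 18.9 and 15.7 against 24.7 and 24.2 CPM (adjusted p = 0.0534). Its log2 fold change was -0.50 with all libraries and -0.64 without articular replicate 1. Fat4, which binds Dchs1, was at 11.6 and 6.42 against 14.2 and 5.07 CPM (adjusted p = 0.864). The log2 fold change of Fat4 was -0.11 with all libraries and turned to 0.25 without articular replicate 2 and to 0.85 without xiphoid replicate 1.

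Among genes that act on gap junction or pannexin channels or on the ATP they release, 4 of 15 tested passed toward articular and 5 toward xiphoid cartilage, with a median log2 fold change of -0.02. Nt5e, the ectoenzyme that makes adenosine from AMP, was 2.35-fold more in articular cartilage (adjusted p = 4.24e-05). Mapk3, a kinase that phosphorylates connexin 43, was at 131 and 165 against 668 and 790.3 CPM, 4.93-fold more in xiphoid cartilage (adjusted p = 4.25e-07). Nov, a matricellular protein that binds connexin 43, was at 40.6 and 38.5 against 152 and 161 CPM, 3.96-fold more in xiphoid cartilage (adjusted p = 6.04e-07). Both Mapk3 and Nov were higher in the tissue with the lower Gja1 level.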

How the data were processed

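RNA of 2 articular and 2 xiphoid cartilage libraries was measured by sequencing. The deposited values are expected counts per gene and library, estimated read numbers that need not be whole and are not normalized, per the file headers. The submitters' processing notes list RSEM 1.2.12, Bowtie2 2.2.6, StringTie 1.2.1, HISAT2 2.0.4 and genome rn6, without their roles. Whether counting used strand is not stated there, so overlapping genes can share reads, and near-identical genes may split them.

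Counts were rounded (3.91% of values were not whole). Genes were filtered with filterByExpr at its defaults, which left 11202 of 13554, scaled by TMM and tested by tissue with edgeR 4.0.16 (glmQLFit, robust, and glmQLFTest, 2-sided) in R 4.3.3, with Benjamini-Hochberg adjustment over all genes tested and a threshold of 0.05. Residual degrees of freedom were 2, and the biological coefficient of variation was 14.1%. Standard errors are the log2 fold change divided by the square root of F. Replicates differed by more than sampling noise (chi-square per degree of freedom 28.5 and 20.0).

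Members with a mean of at least 10 CPM in either tissue, and of the other called members the 6 with the lowest adjusted p in each direction, are given by library. Partner lists name up to 4 genes with the lowest adjusted p and some fixed genes, and other members are named or counted. A few genes are counted but not reported here by name. The members and lists were chosen with earlier results of these data known. RefSeq (GRCr8) supplied promoters and overlapping genes by name. Alternatives were other scalings, filters, DESeq2 1.42.0, limma-voom (limma 3.58.1), a replicate block, a fold threshold of 1.5, leaving out markers of other cells, and leaving out each library. Summing the protocadherin clusters was chosen after seeing the data.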

Additional observations from a re-analysis of the deposited data

How the results depend on the processing

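Among the 37 called members, the sign was the same in every alternative that tested them. All 37 calls were kept with limma-voom and with each other scaling, no low-count filter kept 36 and DESeq2 kept 31. Removing other cells' markers also kept all 37, but it took out only the markers' own rows. The counts of the members stayed unchanged, so this setting cannot show which cells they came from. With the replicate number as a block, 18 members were called in articular and 20 in xiphoid cartilage, and all 37 calls were kept. Among the partner genes the replicate block turned Ctnna1 (adjusted p = 0.00838), Jup (0.0105) and Dchs1 (0.0126) into calls. Over all genes the replicate block gave 3344 and 3484 calls. The numbers are not stated to mark shared animals or days, and same-numbered libraries deviated together with a correlation of 0.24 across 11202 genes, which are not independent. A mean CPM of at least 5 gave 10 members higher in articular and 13 in xiphoid cartilage, because 14 of the 37 were not tested. Against a fold of 1.5, glmTreat called 13 and 16 members and 1686 and 1538 of all genes, since it asks for a larger difference. Leaving out each library gave 13 to 20 members higher in articular and 15 to 21 in xiphoid cartilage, and 2235 to 2952 and 2070 to 3041 of all genes. No scaling moved the median of all genes by over 0.1 (log2), and upper-quartile factors moved it by 0.046. Values of partner genes that turned when a library was left out were those of Fat4, from -0.64 to 0.85 (0.25 without articular replicate 2), and Ctnnd1, from -0.084 to 0.13, and the cause was not tested. Depth limits the 39 untested members and the members under about 10 CPM, where 1 library can decide the value. Calls also depended on single libraries in some genes above 10 CPM, among them Tjp1, Pcdhga7 and Ctnnb1.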
